A study of Bos taurus with 13 samples.

Results

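The microRNA (miRNA) bta-miR-21 was measured as its 2 mature arms, bta-miR-21-5p and bta-miR-21-3p, which were found by name among the 311 miRNAs listed in 13 libraries of extracellular vesicles (EVs) from bovine follicular fluid. bta-miR-21-5p was listed for all 13 libraries. bta-miR-21-3p was listed for 10 libraries and was not listed for the transient cows at weeks 9 to 10, so that it was not analysed there. Each library came from 1 pool of fluid that had been aspirated from large follicles of lactating Holstein Friesian cows or of heifers, which are young females that have not calved, and the EVs had been isolated by ultracentrifugation.

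The study asked how the energy balance of a cow after calving relates to the miRNAs that EVs carry in the follicle. Transient cows (TCs), which were in negative energy balance early and recovered later, were sampled at weeks 5 to 6 (3 pools from 11 cows) and again at weeks 9 to 10 (3 pools from 7 cows). Always negative cows (ANCs) and always positive cows (APCs) were sampled at weeks 5 to 6 after calving, with 2 pools from 2 cows in each group. The heifers, with 3 pools from 8 animals, were in positive energy balance and were not lactating. The labels call the pools biological replicates but do not tell which animals went into which pool, so p-values measure the spread between pools, and the ANCs and APCs stand for 2 cows each. The same TCs may be in pools of both times, and the tests treat these pools as independent.

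miR-21 is one of the most widely expressed miRNAs of mammalian cells and is known for limiting cell death, in part by repressing the tumour suppressor PDCD4. A miRNA gene gives a hairpin that is cut into a 5p and a 3p strand, of which one is usually retained and the other degraded, and in miR-21 the 5p strand is the retained one. In the ovary, miR-21 is known to rise in granulosa cells after the luteinizing hormone (LH) surge, and its loss there raises apoptosis. In the RefSeq annotation of ARS-UCD2.0 the gene MIR21 lies between VMP1, which acts in autophagy, and TUBD1, a tubulin gene. The processed files were made on UMD3.1, another assembly, and no coordinates are given.

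The deposited values are normalised read counts scaled to library size (CPM). The steps between low values returned whole reads for all 3681 values, to within 0.1 read, and a library held between 145030 and 421435 such reads with a median of 327359. A share below is a percent of these miRNA reads. Its counting interval is narrow next to the spread between pools, with an exact 95% binomial interval of 5.96 to 6.20% around 6.08% in the shallowest library, and all such intervals cover counting error only. Pools of 1 group differed far beyond sampling noise (chi-square per degree of freedom 36.8 to 547). The 6 miRNAs of the list for gonad and granulosa were found in every library and made up 0.367 to 1.29% of the reads. Marker miRNAs of other sources were found too, with 0.0847 to 0.641% for the 6 leukocyte miRNAs, 0.0149 to 1.08% for 2 of the 3 erythroid miRNAs, 0.0374 to 1.94% for the liver miRNA bta-miR-122 and 0.0216 to 0.104% for the 3 muscle miRNAs. bta-miR-451, the defining erythroid miRNA, was at 0 in replicate 1 of the ANCs.

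bta-miR-21-5p was the most abundant miRNA of the series by its median share, at 9.88% of the reads. The next were bta-miR-320a with a median of 5.48%, bta-let-7b with 5.32%, bta-miR-423-5p with 4.25% and bta-miR-16b with 4.20%. It held the first rank in 7 of the 13 libraries and ranks 2 to 4 in the other 6, where bta-miR-320a (3 libraries), bta-miR-16b (2 libraries) or bta-miR-92a (1 library) came first. Its share ranged from 5.33 to 17.1%, a 3.21-fold range. Among the other 7 of the 8 most abundant miRNAs this range ran from 2.24-fold (bta-miR-143) to 6.37-fold (bta-miR-320a), with bta-let-7a-5p at 3.02-fold. Where it led, it exceeded the next miRNA by as little as 1.08-fold (replicate 1 of the heifers) and by as much as 2.36-fold (replicate 2 of the TCs at weeks 5 to 6).

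**Figure D1:**
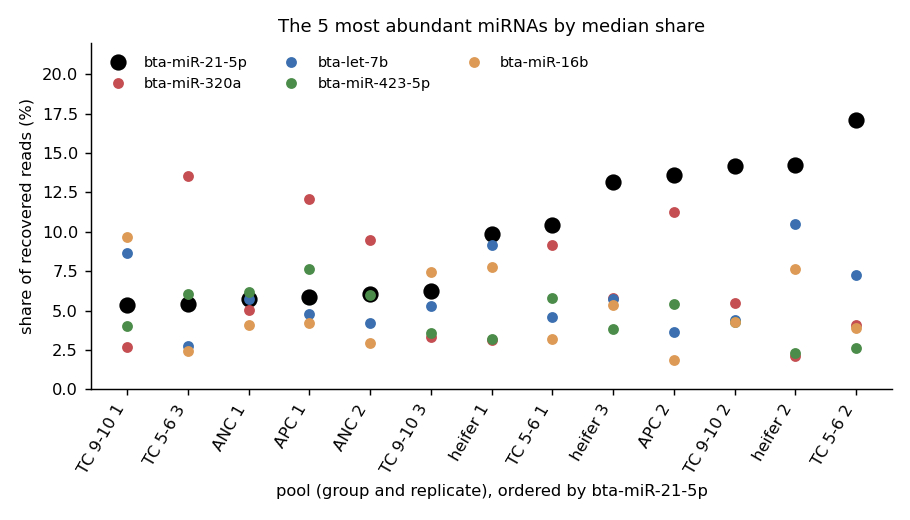
Share of the recovered reads (%) of the 5 miRNAs with the highest median share, for each of the 13 pools, which are ordered along the x axis by bta-miR-21-5p (large black points). bta-miR-21-5p is the highest point in the 7 pools on the right, from 9.88 to 17.1%, and lies under another miRNA in the 6 pools on the left, from 5.33 to 6.27%.

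Replicates 1, 2 and 3 of the early TCs (weeks 5 to 6) had 10.4, 17.1 and 5.45% of their reads on bta-miR-21-5p (30274, 60845 and 19779 reads). In the TCs at weeks 9 to 10 the shares were 5.33, 14.2 and 6.27%. The ANCs had 5.72 and 6.08%, the APCs 5.87 and 13.6%, and the heifers 9.88, 14.2 and 13.1%. The values of the TCs and APCs thus spanned nearly the whole range of the series, and those of the 2 ANC pools were both low and close together. No pool lay between 6.27 and 9.88%, a 1.58-fold step. The 3 heifer pools were all above this step, the 2 ANC pools were both below it, and the TCs at both times and the APCs had pools on either side.

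The group means fell in the order heifers (12.4% ± 2.27, SD, n = 3), TCs at weeks 5 to 6 (11.0% ± 5.84, n = 3), APCs (9.73% ± 5.47, n = 2), TCs at weeks 9 to 10 (8.59% ± 4.85, n = 3) and ANCs (5.90% ± 0.253, n = 2). None of the 4 neighbouring pairs in this order differed by more than the spread between pools, with exact two-sided permutation p = 0.8 for heifers and TCs at weeks 5 to 6, 1 for these TCs and APCs, 0.9 for APCs and TCs at weeks 9 to 10, and 0.8 for the latter and ANCs. Over all 5 groups, the differences between group means made up 27.7% of the variance of the share, and an exact permutation test over all 7207200 assignments of the 13 pools gave p = 0.572. The share of bta-miR-21-5p was therefore not shown to differ among the groups as a whole.

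**Figure D2:**
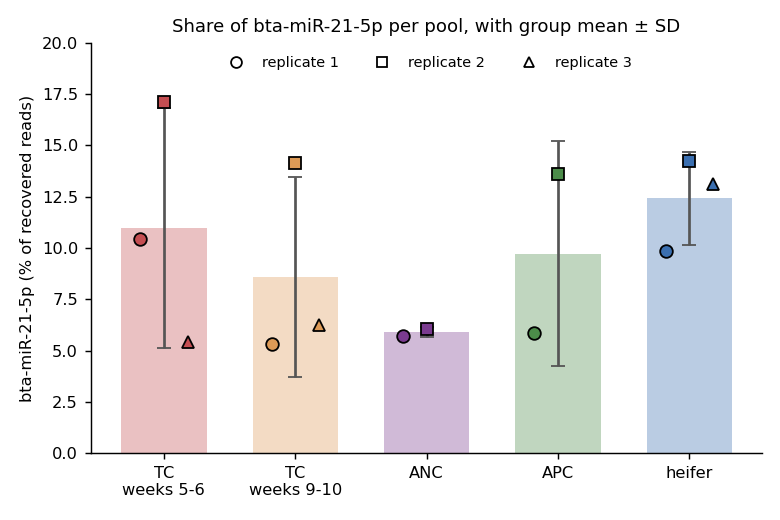
Share of bta-miR-21-5p in percent of the recovered reads for each pool (points, with the replicate number as the symbol) by group, with the group mean as a bar and the SD as an error bar (n = 3, 3, 2, 2 and 3). The pools of the TCs and APCs are spread from 5.33 to 17.1%, the 2 ANC pools sit at 5.72 and 6.08%, and replicate 2 is the highest pool of every group.

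In all 5 groups the highest pool was the one labelled replicate 2. The listed days of RNA measurement put replicate 1 before replicates 2 and 3 in the 4 groups other than the APCs, of which 1 pool has no day. The low replicate 3 of the TCs at either time shared its day with the high replicate 2. What the replicate number marks is not stated. Any part of the number or the day in these values was tested only in fits with either as a term. These fits are given with the comparisons below where they change a call.

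To compare the groups, the reads were scaled with TMM factors, which assume that most miRNAs do not change, and log2(CPM + 5) was fitted with limma over all miRNAs that passed a filter on low counts. Called miRNAs are those that met 3 conditions together: |log2 fold change| of 1 or more, unadjusted p below 0.05, and Benjamini-Hochberg adjusted p no higher than 0.25. bta-miR-21-5p was tested in all 12 comparisons of the groups and was called in none. All comparisons with heifers share the same 3 heifer pools, and the one of all lactating cows reuses the cow pools of the others.

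The only 95% interval that did not include 0 was that of the ANCs with the heifers, a comparison that sets cows under lasting negative energy balance against animals that do not lactate. bta-miR-21-5p stood at 5.72 and 6.08% of the reads in the ANCs and at 9.88, 14.2 and 13.1% in the heifers, so that the groups did not overlap. The log2 fold change was -0.98 (SE 0.32, 95% interval -1.72 to -0.24), or 0.508 of the heifer level, with an adjusted p of 0.138 in limma. The p-values passed and the fold change stopped just short of the minimum of 1, so that bta-miR-21-5p was not among the 40 of 215 tested miRNAs (18.6%) that were called in this comparison. This count was 0 without replicate 1 of the ANCs, 6 and 17 without replicates 1 and 2 of the heifers, and 54 without replicate 3 of the heifers. bta-miR-21-5p ranked 24 by p-value. Groups that did not overlap were common here, with 102 of 215 miRNAs (47.4%). Its mean share was 0.475 of the heifer mean, with an exact permutation p = 0.1, which is the smallest p that 2 against 3 pools allow, and 1 after adjustment over the 12 comparisons. The call was made where the fold change was computed on total reads (-1.06), on the deposited values (-1.23) or with DESeq2 (-1.01), and without replicate 2 of the ANCs (-1.13), where the 1 ANC pool left is assumed to vary like the heifers. Adjusted p-values ranged from 0.00328 to 0.360 over the 14 alternatives of this comparison.

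The other comparisons with heifers gave smaller differences. In the APCs, which lactate without an energy deficit, bta-miR-21-5p overlapped with the heifers (5.87 and 13.6% of the reads against 9.88 to 14.2%). The log2 fold change was 0.13 (SE 0.48, 95% interval -1.02 to 1.28, limma adjusted p = 0.918), in a comparison in which 12.4% of the 233 tested miRNAs were called (29, with 3 to 48 when a pool was left out, the lowest without replicate 1 of the heifers). This value followed the scaling, since it was -0.46 on total reads, where the median of all miRNAs stood at -0.54, and relative to the median it was 0.10 with TMM and 0.08 on total reads. In the TCs at weeks 5 to 6 the log2 fold change was -0.10 (SE 0.42, interval -1.10 to 0.90, adjusted p = 0.901), while 6.96% of the 230 tested miRNAs were called, or 16 miRNAs, and 29 with the replicate block, under which bta-miR-21-5p stayed at -0.10. The count was 0 without replicate 1 or 3 of these TCs or without replicate 1 or 2 of the heifers, 46 without replicate 2 of the TCs and 29 without replicate 3 of the heifers. In the TCs at weeks 9 to 10 it was -0.65 (SE 0.43, interval -1.64 to 0.34, adjusted p = 0.648). limma called 0 of 227 miRNAs (0%) there, with 24 at an unadjusted p under 0.05, edgeR called 0 and DESeq2 15. Without replicate 2 of these TCs, the pool at 14.2%, the log2 fold change was -1.14 and was called, with adjusted p-values from 0.121 to 0.947 over the alternatives.

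Over all 10 lactating cow pools, the share of bta-miR-21-5p had a lowest value of 5.33% and a highest of 17.1%, and the heifers lay inside this range. The mean was 9.00% in cows and 12.4% in heifers (exact permutation p = 0.213). The log2 fold change was -0.46 (SE 0.44, interval -1.39 to 0.48, limma adjusted p = 0.573). In this comparison 6.28% of the 239 tested miRNAs were called (15), with 0 without replicate 2 and 24 without replicate 3 of the heifers.

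Among the lactating cows, the ANCs and APCs were compared at the same weeks. bta-miR-21-5p was lower in both ANC pools than in either APC pool after TMM scaling, with a log2 fold change of -1.01 (SE 0.59, interval -2.51 to 0.50, limma adjusted p = 0.569). As a share of the reads the 2 groups overlapped, since replicate 1 of the APCs (5.87%) lay between the 2 ANC pools. Groups without overlap after TMM scaling were found for 43.5% of the 207 miRNAs tested. limma called 0 of them (0%), with 17 at an unadjusted p under 0.05, edgeR called 0 and DESeq2 32, bta-miR-21-5p among them (-1.25). Without replicate 1 of the APCs the log2 fold change was -1.73 and was called, with 1 pool of APCs left, which is then assumed to vary like the ANCs. The adjusted p-values of the alternatives ran from 0.141 to 0.971.

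The ANCs were next set against the TCs at weeks 5 to 6, which were in negative energy balance at the time. The log2 fold change was -0.99 (SE 0.54, interval -2.27 to 0.30, adjusted p = 0.582), without overlap after TMM scaling, as in 27.1% of the 225 tested miRNAs, but with an overlap of the shares, because replicate 3 of the TCs stood at 5.45%. limma called 0 miRNAs (0%), with 18 at an unadjusted p under 0.05, edgeR 0 and DESeq2 14. Against the TCs at weeks 9 to 10, which differ from the ANCs in week as well, the difference was -0.42 (SE 0.49, adjusted p = 0.713). The median of all miRNAs stood at -0.19 in that comparison, and bta-miR-21-5p at -0.22 relative to it. limma called 0 of 233 miRNAs (0%), with 13 at an unadjusted p under 0.05, edgeR 0 and DESeq2 9.

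The APCs differed from the TCs at weeks 5 to 6 by 0.13 (SE 0.70, interval -1.57 to 1.82, adjusted p = 0.993), a value that was negative on total reads (-0.15), on the deposited values (-0.044) and with the replicate block (-0.22). limma called 0 of 225 miRNAs (0%), with 6 at an unadjusted p under 0.05, edgeR 0 and DESeq2 2. The TCs at weeks 9 to 10 were in positive energy balance like the APCs, but the APC pools are from weeks 5 to 6. Group and week after calving thus cannot be told apart here. Against these TCs the log2 fold change was 0.77 (SE 0.63, interval -0.75 to 2.28, adjusted p = 0.758), where 10.0% of the 229 tested miRNAs were called (23, with 0 without replicate 3 of the TCs). It was 1.49 and called without replicate 1 of the APCs, with 1 APC pool left that is assumed to vary like the TCs, and the adjusted p-values of the alternatives ran from 0.196 to 0.997.

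The recovery of the TCs from weeks 5 to 6 to weeks 9 to 10 went with a log2 fold change of bta-miR-21-5p of -0.59 (SE 0.53, interval -1.80 to 0.63, adjusted p = 0.710). The shares of both times overlapped over nearly their whole range (5.45 to 17.1% and 5.33 to 14.2%, exact permutation p = 0.6). limma called 0 of 224 miRNAs (0%), with 12 at an unadjusted p under 0.05, edgeR 0 and DESeq2 24. When the 5 pools of cows in negative balance (median share 6.08%) were set against the 5 in positive balance (median 6.27%), the log2 fold change was -0.10 (SE 0.47, interval -1.13 to 0.92, adjusted p = 0.997) and the mean shares were 8.96 and 9.05% (exact permutation p = 0.937). limma called 0 of 221 miRNAs (0%), with 3 at an unadjusted p under 0.05, edgeR 0 and DESeq2 2. In both comparisons the energy status of the TCs cannot be told apart from the week after calving.

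**Figure D3:**
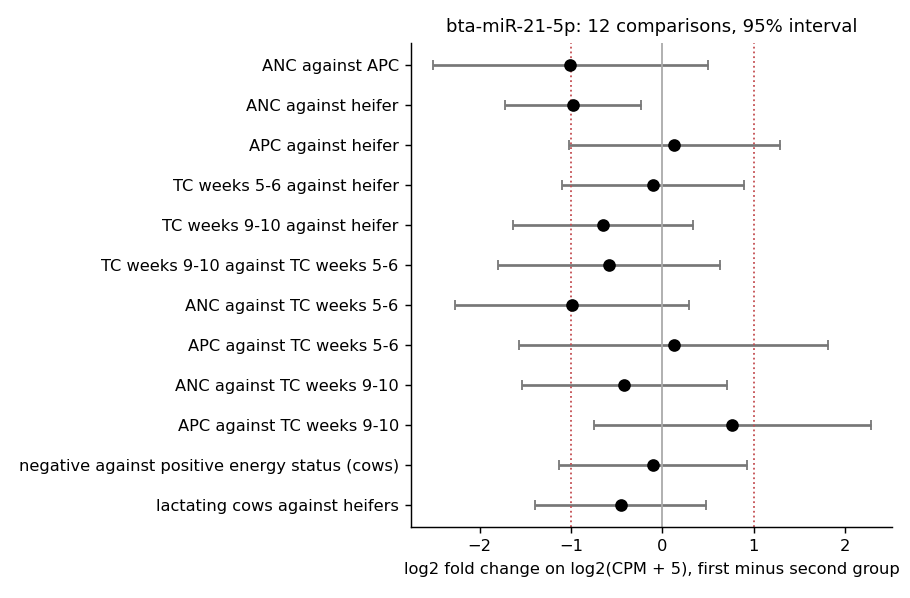
log2 fold change of bta-miR-21-5p on log2(CPM + 5) with its 95% interval from limma, for the 12 comparisons, as the first group minus the second. Dotted lines mark a log2 fold change of 1 in either direction. Only the interval of ANCs against heifers, -1.72 to -0.24, lies to 1 side of 0.

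In the TCs, energy status and week after calving cannot be told apart. The difference between negative and positive energy status was -1.01 for the always negative and always positive cows and was of the opposite sign for the TCs, whose level was higher at weeks 5 to 6. A test of the difference between these 2 differences gave -1.72 (SE 0.86, limma adjusted p = 0.350), with 0 of 241 miRNAs called (0%) and 36 at an unadjusted p under 0.05. No other tool was run for this test. It was called with the replicate block (-1.72), without replicate 2 of the TCs at weeks 9 to 10 (-2.06) and without replicate 1 of the APCs (-2.43), where the lone APC pool is assumed to vary like the other groups. Adjusted p-values lay between 0.185 and 0.780 over its alternatives.

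The 3p arm was found at the edge of detection. It was seen in 3, 5 and 6 reads of the early TC pools, in 1 read of each ANC pool, in 8 and 19 reads of the APC pools and in 11, 7 and 13 reads of the heifer pools, while the same pools held between 8815 and 60845 reads of the 5p arm. In the 10 libraries together, 74 of 326838 reads of both arms were from the 3p arm, or 0.0226%. Among the 25 miRNAs for which both arms were listed, only bta-let-7a had a similarly low share of its minor arm. It was 0.0307%, on 24 reads of that arm in the 6 libraries that list it. The next were bta-miR-23b (0.151%) and bta-miR-199a (0.242%). In the heifers, which list both arms of miR-21 and let-7a, the mean share was 0.0340% for miR-21 and 0.0240% for let-7a. At the other end, the minor arms of bta-miR-369 and bta-miR-362 took 42.4 and 43.3%, on only 97 and 26 reads of these arms. Among the abundant miRNAs, bta-miR-423 had 8.53% of its reads on the 3p arm.

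Over the pools of a group, the 3p arm made up 0.00929% of the reads of both arms in the ANCs (exact 95% interval 0.00113 to 0.0336%, 2 reads), 0.0126% in the TCs at weeks 5 to 6 (0.00690 to 0.0212%, 14 reads), 0.0263% in the heifers (0.0179 to 0.0373%, 31 reads) and 0.0353% in the APCs (0.0233 to 0.0513%, 27 reads). These intervals cover counting error only. Single pools ranged from 0.00787 to 0.0606%. Both APC pools (0.0416 and 0.0331%) were above all 3 pools of the TCs at weeks 5 to 6 and both ANC pools, whereas the heifers (0.0606, 0.0129 and 0.0285%) overlapped with the APCs and the TCs. The APC mean exceeded that of these TCs 2.32-fold, with an exact permutation p = 0.2 and 0.5 after adjustment over the 6 comparisons possible. Over the 4 groups, an exact permutation test gave p = 0.275 (25200 assignments). The counting intervals of the APCs and of these TCs did not overlap. With 2 or 3 pools a group, a permutation test of 2 groups cannot give a p under 0.1, so that it cannot show whether they differ. The test over the 4 groups is not bound in this way and did not show a difference.

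**Figure D4:**
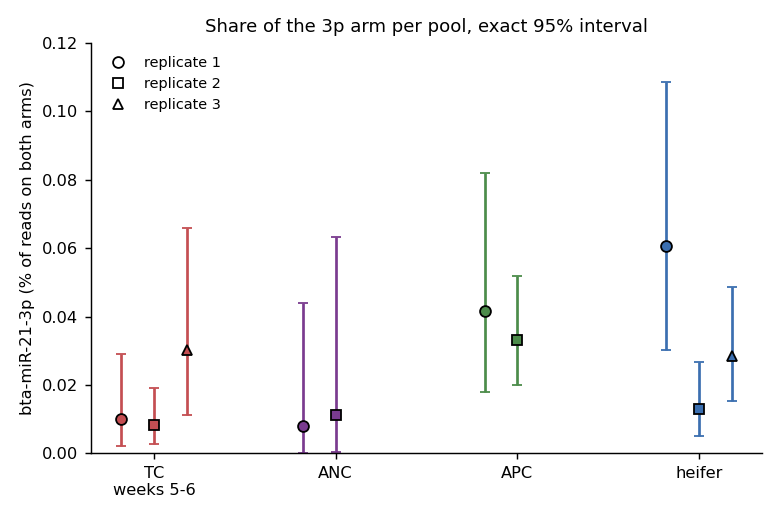
bta-miR-21-3p in percent of the reads on both arms for the 10 pools in which it was listed, by group, with the replicate number as the symbol and the exact 95% binomial interval of each pool, which covers counting error only. The ANC pools rest on 1 read each, and the interval of the highest pool, replicate 1 of the heifers at 0.0606%, overlaps with that of most other pools.

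bta-miR-21-3p passed the filter on low counts only in the comparison of APCs and heifers, where its log2 fold change was 0.45 (SE 0.56, interval -0.89 to 1.79, limma adjusted p = 0.710). Without the filter it could be fitted in 5 more comparisons and was called in 1, ANCs against heifers, with a log2 fold change of -1.85 (SE 0.58, adjusted p = 0.160, 46 of 267 miRNAs called). That value rests on 1 read in each ANC pool and depends on the 5 CPM added before the logarithm. It is set against 7 to 13 reads in the heifer pools.

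The miRNAs whose level over the 13 libraries was most like that of bta-miR-21-5p were the whole miR-200 family, a family of epithelial miRNAs that restrains the transition to a mesenchymal state. By Pearson's r of log2(CPM + 5) with TMM scaling, bta-miR-200c stood first (r = 0.968), before bta-miR-200b (0.955), bta-miR-429 (0.954), bta-miR-200a (0.911) and bta-miR-141 (0.875). These values describe the 13 libraries, which share their scaling and differ in depth, and carry no test. The median r of the 243 miRNAs was 0.01, and 10 were above 0.8. All 5 were also well above it when only deviations from the group means were used, with r from 0.859 to 0.979, so that the likeness was present among pools of the same group.

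The likeness was seen in the single pools. bta-miR-200c took 0.159, 0.423 and 0.0642% of the reads in the TCs at weeks 5 to 6, 0.0846, 0.268 and 0.0936% in those at weeks 9 to 10. Its share was 0.0842 and 0.0924% for ANCs, 0.0724 and 0.292% for APCs, and 0.245, 0.331 and 0.281% for heifers. No pool lay between 0.0936 and 0.159% of bta-miR-200c, and the pools on either side of this step were those on either side of the step in bta-miR-21-5p. The 5 family members together ranged from 0.446 to 2.85% of the reads, and bta-miR-21-5p exceeded their sum by 6.00 to 12.9-fold. A list of 9 epithelial miRNAs, which holds the miR-200 family and bta-miR-182, bta-miR-183, bta-miR-184 and bta-miR-205, ranged from 0.518 to 3.30%, with none at 0 in any library. Within each of the 5 groups, the order of the pools by this list was the order by bta-miR-21-5p. In the heifers this rested on a near tie of replicates 1 and 3 (1.910 and 1.914%). The sum of the 5 family members matched the order in 4 of the 5 groups. It was 1.34% in replicate 1 and 1.27% in replicate 3 of the heifers, against 9.88 and 13.1% for bta-miR-21-5p. The epithelial list was chosen with earlier results of these data known, and its part in the level of bta-miR-21-5p was not tested.

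The summed share of the gonad and granulosa miRNAs ran the other way, although not every member did, with r from -0.75 (bta-miR-450b) to 0.17 (bta-miR-503-5p) and 0.06 for bta-miR-450a. This sum (bta-miR-202, bta-miR-424-5p, bta-miR-450a, bta-miR-450b, bta-miR-503-5p and bta-miR-542-5p) was highest in the ANCs (1.29 and 1.19%), lowest in replicate 2 of the APCs (0.367%), and matched the order of bta-miR-21-5p in 0 of the 5 groups. r with bta-miR-21-5p on the log2 scale of the shares was -0.69, against 0.96 for the epithelial list, 0.70 for the leukocyte list, 0.53 for the liver miRNA bta-miR-122, 0.32 for the muscle list and 0.00 for the erythroid list. The 3 miRNAs least like bta-miR-21-5p were bta-miR-152 (r = -0.83), bta-miR-450b (-0.75) and bta-miR-210 (-0.75), the last of them known as a hypoxia-induced miRNA. In this bulk material, fewer vesicles from one source and less miR-21 in each vesicle cannot be told apart.

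**Figure D5:**
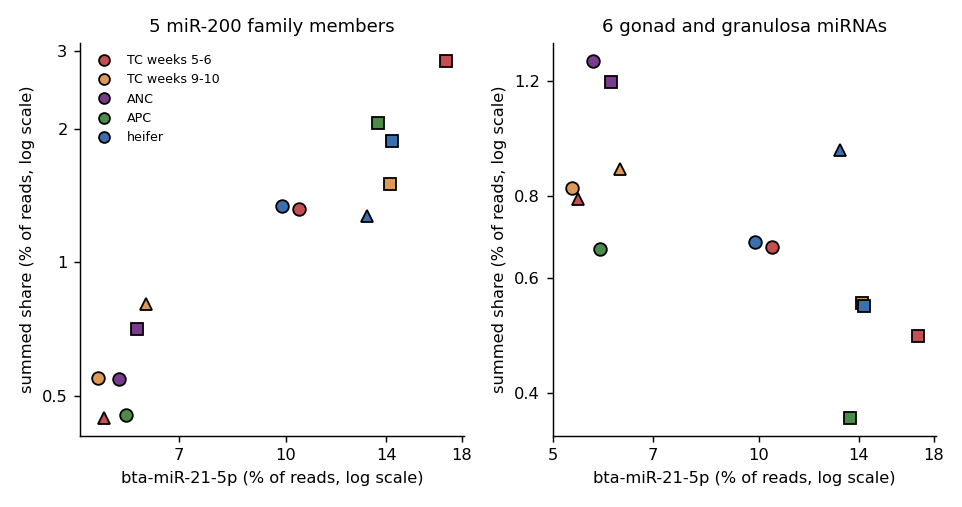
Summed share of the 5 miR-200 family members (left) and of the 6 gonad and granulosa miRNAs (right) against the share of bta-miR-21-5p, in percent of the recovered reads on log axes, for the 13 pools (colour for the group, symbol for the replicate number: circle 1, square 2, triangle 3). The family rises with bta-miR-21-5p from 0.446 to 2.85%, and the granulosa miRNAs are highest in the 2 ANC pools at 1.29 and 1.19%.

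In the comparison of ANCs with heifers, where bta-miR-21-5p was at -0.98, bta-miR-200c (log2 fold change -1.60, adjusted p = 0.0749) and bta-miR-200b (-1.57, adjusted p = 0.0749) fell and were called, while bta-miR-141 (-1.11), bta-miR-429 (-0.95) and bta-miR-200a (-0.82) did not pass. Of the whole epithelial list, 6 of 9 were called lower and 0 higher, with a median of -1.57 against 0.00 over all miRNAs tested, of which 12.1% were called lower and 6.51% higher. The calls of all lists in this comparison were lost without replicate 1 of the ANCs, where 1 ANC pool is left. Whether this comes from that pool or from the fewer samples was not tested. In the same comparison, all 5 leukocyte miRNAs that were tested were called lower, with a median of -2.16, and 3 of the 6 gonad and granulosa miRNAs were called higher. The erythroid and liver miRNAs were also lower, at 2 of 2 and 1 of 1, with 1 of 3 muscle miRNAs. Their part in the result for bta-miR-21-5p was not tested.

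miR-21 is known to be induced in granulosa cells by the LH surge together with miR-132 and miR-212. bta-miR-212 was not listed. bta-miR-132 ranged from 0.00664 to 0.687% of the reads and was called lower in the ANCs than in the heifers (log2 fold change -3.61, SE 1.14, limma adjusted p = 0.128). It was called in no other comparison. Over all libraries, Pearson's r of bta-miR-132 with bta-miR-21-5p was -0.13, and it was -0.61 on deviations from the group means. The levels of these miRNAs thus did not rise together over the pools. Whether the LH surge had a part in either level was not tested.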

How the data were processed

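EV small RNA of 13 follicular fluid pools had been sequenced by the authors with the QIAseq miRNA kit. Per the labels and the study's methods, adaptors were trimmed with cutadapt 1.11, reads were mapped to UMD3.1 with Bowtie2 2.2.2, annotated against miRBase and normalised with TMM in edgeR. The deposited values are normalised CPM per miRNA. Library totals ran from 822818 (ANCs, replicate 1) to 1.25e+06 (APCs, replicate 2), on either side of what CPM sum to. With the authors' TMM scaling, the values were taken as a normalised signal in all libraries. Only miRNAs listed for a group were analysed there. Whether molecular identifiers were counted is not given in the sources used here.

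Low values of a library step by the worth of 1 read, which gave back whole reads, a procedure tested on simulated libraries. A miscalled step would change the read counts of a library and their counting intervals, but would nearly cancel in its shares. Libraries of a comparison were scaled with TMM (edgeR 4.0.16) and tested with limma 3.58.1, with a trend, on log2(CPM + 5), after filterByExpr (minimum count 10, minimum total 15). DESeq2 1.42.0 and edgeR's quasi-likelihood test on the recovered reads were alternatives, as were another pseudocount (1 CPM), filter, scaling, a single fit, leaving out each pool, the day of RNA measurement and the replicate number as a block. The pipeline was tested on simulated reads. Single values were compared with exact two-sided permutation tests of all assignments (scipy 1.17.1). These exact permutation tests cannot go under p = 0.333 with 2 against 2 pools or under p = 0.1 with 2 or 3 against 3.

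The labels give replicate numbers to all groups. Same-numbered pools deviated together in all 3 pairs only for TCs at weeks 5 to 6 and heifers (r = 0.191, 0.377 and 0.376) and met the criterion for pairing there. Comparisons with ANCs or APCs hold only 2 pairs, so that 3 could not be asked of them. The fits and permutation tests given are unpaired throughout, and the replicate block is an alternative. The members and the lists of miRNAs were chosen with earlier results of these data known. A further planned list is not reported here. Named were both arms, the next 4 miRNAs by abundance, the 5 most and 3 least like bta-miR-21-5p, two-armed miRNAs and list members. No miRNA sequence was used here, so that miRNAs sharing the seed of miR-21 were not looked for.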

Additional observations from a re-analysis of the deposited data

Results flagged for a closer look

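Among the 5 pools of cows in negative energy balance, replicate 3 of the TCs at weeks 5 to 6 stood far from the others in the share of bta-miR-21-3p, with 0.0303% of the reads of both arms against 0.00787 to 0.0113% in the other 4. The gap to the nearest pool was 0.845 of the whole range, above the Dixon 95% critical value of 0.710 for 5 pools. The value rests on 6 reads, and its exact interval of 0.0111 to 0.0660% covers counting error only. Chance gives such a gap in about 1 of 20 groups, and 4 sets of pools were examined. The share of bta-miR-21-5p had no such pool in either energy status group or among the 10 cow pools. Groups of 2 or 3 pools were too small for this test.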

How the results depend on the processing

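None of the 12 fitted comparisons of bta-miR-21-5p was called, and 174 of 204 recomputed fold changes (the interaction and bta-miR-21-3p included) kept their direction and their side of the threshold, while 19 changed sign and 11 became calls. Of the 123 recomputed differences in shares, 18 changed sign. Most of their tests cannot reach a p under 0.1, so that they say nothing about a threshold. The cause of these changes was not tested, and leaving out a pool also leaves fewer samples. ANCs against APCs became a call with DESeq2 (-1.25), and ranged from -1.73 to -0.28 with a pool left out. ANCs against heifers became a call on total reads (-1.06), on deposited values (-1.23) and with DESeq2 (-1.01), with a leave-one-out range of -1.18 to -0.78. APCs against heifers turned to -0.46 on total reads, -0.22 on deposited values and -0.024 in a single fit of all libraries (-0.60 to 0.86 with a pool left out), and bta-miR-21-3p in that comparison to -0.064 on total reads (-0.046 to 0.96). TCs at weeks 5 to 6 against heifers turned to 0.063 with DESeq2 (-0.31 to 0.28), and APCs against these TCs to -0.15 on total reads, -0.044 on deposited values and -0.22 with the replicate block (-0.65 to 0.90). Leave-one-out ranges were -1.14 to -0.36 for TCs at weeks 9 to 10 against heifers, -0.70 to 0.076 for ANCs and 0.045 to 1.49 for APCs against those TCs, -0.38 to 0.19 for negative against positive cows, and -2.43 to -1.01 for the interaction, which the replicate block made a call (-1.72). The scaling moved the median of all miRNAs by over 0.1 in several comparisons, most for APCs against heifers (0.03 with TMM, -0.54 on total reads).

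For the share of reads, in percentage points and with a pool left out, the difference ran from -7.70 to 0.0334 for ANCs against APCs, -6.56 to 1.17 for APCs and -4.48 to 1.35 for TCs at weeks 5 to 6 against heifers, -5.20 to 0.645 between the TC times, -5.13 to 2.60 for APCs against early TCs, -4.32 to 0.0997 for ANCs and -2.72 to 5.01 for APCs against late TCs, and -2.12 to 1.19 for negative against positive cows. For the 3p arm, in percent of both arms, it ran from -0.0105 to 0.000544 for ANCs against early TCs and -0.00718 to 0.0167 for APCs against heifers. bta-miR-21-5p ranked first in 7 libraries also among the miRNAs listed for all groups, and 3 of the 5 most similar miRNAs stayed among the first 5 by deviations from group means.

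Counts of called miRNAs moved by over 1.5 times under several settings. For ANCs against APCs the count of 0 became 28 with the replicate block and 32 with DESeq2. For ANCs against heifers, 40 became 65 with the replicate block. For ANCs against TCs it became 2 (early) and 27 (late) with the block. APCs against heifers went from 29 to 49 on deposited values and 63 on total reads, APCs against late TCs from 23 to 36 and 43, and late TCs against heifers from 0 to 7 with the block, 6 on total reads and 4 in the single fit. Early TCs against heifers went from 16 to 26 on total reads, 29 with the block and 37 with DESeq2, and to 0 with the measurement day as a term. With a pool left out, the counts ran from 0 to 54 for ANCs, 3 to 48 for APCs, 0 to 46 for early TCs, 0 to 25 for late TCs and 0 to 24 for all cows against heifers. They ran from 0 to 36 for ANCs against APCs, 0 to 7 for ANCs and 0 to 4 for APCs against early TCs, 0 to 5 for ANCs and 0 to 44 for APCs against late TCs, 0 to 22 between the TC times and 0 to 2 for negative against positive cows. The replicate numbers met the criterion for pairing only for the early TCs and the heifers. In the other comparisons the correlation of deviations lay between -0.154 and 0.506. It was positive in both pairs for ANCs (0.406 and 0.506) and APCs (0.506 and 0.494) against late TCs. It was also positive for ANCs against APCs (0.257), and of mixed or negative sign elsewhere. The 2 pools of the ANCs or APCs deviate from their mean by equal and opposite amounts. Agreement between the 2 pairs of such a comparison is therefore not separate evidence. What the number marks is not stated. Apart from the interaction, the block changed no call of miR-21. With 2 or 3 pools a group and 1 to 19 reads of bta-miR-21-3p, small differences cannot be shown.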
